A study of Homo sapiens with 8 samples.

Results

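The fibrillar collagens described here are 7 genes, COL1A1, COL1A2, COL3A1, COL5A1, COL5A2, COL5A3 and COL11A1, taken by gene symbol from a table of 27696 genes. All 7 were present once and passed the filter on low counts. RNA came from IMR90 fibroblasts, a human lung fibroblast line, after 3 days in medium that other IMR90 cells had conditioned. The cells that conditioned the medium were IMR90-ER:RAS fibroblasts, in which an inducible oncogenic RAS fused to an estrogen receptor domain is switched on by 4-hydroxytamoxifen (4-OHT). Medium was taken at day 0 (D0), day 4 (D4), day 7 (D7) or day 10 (D10) of 4-OHT. All 4 groups therefore received medium from ER:RAS cells, and the D0 medium serves as the control. Each group had 2 libraries, 1 from each of 2 independent experiments, which gives 8 libraries of poly(A) RNA. The study used them to follow over time how fibroblasts respond to the secretions of cells entering senescence.

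Fibrillar collagens are secreted as procollagen triple helices, trimmed of their propeptides and assembled into the banded fibrils that give connective tissue its tensile strength. Type I collagen, made of α1(I) and α2(I) chains, is the bulk of the fibril, type III collagen co-assembles with it, and types V and XI sit inside the fibril, where they help to start it and limit its diameter. Lung fibroblasts and myofibroblasts are their main source in the lung.

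The libraries held 11708193 to 13395912 counts, and the deposited table was used as raw counts. Fibroblast genes were detected throughout, from VIM at 3775 to 8530 CPM (counts scaled to the library total) down to S100A4 at 1.37 to 5.64 CPM. The summed level of 10 fibroblast markers was 11540 to 13530 CPM at D0 and 6037 to 9982 CPM at D10. The epithelial, endothelial and leukocyte lists stayed under 4 CPM in sum in every library, with the leukocyte marker PTPRC at 0.0854 CPM or less. The smooth muscle list summed to 142 to 273 CPM, with MYH11 at 1.29 CPM or less, and the cartilage list to 45.2 to 123 CPM, nearly all of it SOX9. In both experiments the fibroblast and smooth muscle markers had their lowest sums at D10, and the part of either in the collagen values was not tested. Not every fibroblast marker followed the sum, since PRRX1 was 18.9 and 33.7 CPM at D0 and 31.4 and 52.4 at D10. The D10 library of experiment 2 stood apart from the rest, with 1.22% of its counts on mitochondrial genes against 2.18% to 3.60% in the other 7, and results are therefore given within each experiment as well as together. In bulk RNA, fewer cells of a type and less RNA per cell cannot be told apart.

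The 7 collagens together took a large share of all counts. In experiment 1, a share of 3.34% of counts at D0 stood against 2.16%, 2.19% and 2.496% with D4, D7 and D10 medium. In experiment 2 the D0 share of 2.498% was followed by 2.33%, 2.28% and 0.589%. The share was thus highest with D0 medium in both experiments, and the D10 library of experiment 2 was the lowest of all 8. Between D10 and D0 the log2 difference of the share was -0.42 in experiment 1 and -2.08 in experiment 2. A two-sided exact permutation test of 2 against 2 gave p = 0.333, the smallest p this test can give. This test and those of the chain ratios below took the libraries as unpaired.

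Compared per kilobase of exon, COL1A2 (median 963 CPM per kb over the 8 libraries) and COL1A1 (912 CPM per kb) led the family. COL3A1 followed at 238, COL5A2 at 138 and COL5A1 at 62.1 CPM per kb. COL5A3 at 0.743 and COL11A1 at 0.260 CPM per kb were far below. Over the 8 libraries the ranges of each pair of neighbours in this order overlapped, except those of COL5A1 and COL5A3. Within single libraries COL1A1 was 1.92 to 4.23 times COL3A1 and COL5A1 was 0.380 to 0.521 times COL5A2, so the order within these 2 pairs held in all 8 libraries. COL3A1 and COL5A2 changed places at D10 of experiment 2, and COL11A1 was above COL5A3 at D0 and D4 of experiment 2. Which type I chain ranked higher also depended on the length used. At D0 of experiment 1 the ratio of COL1A1 to COL1A2 was 1.12 per kb of all exons and 0.874 per kb of the longest transcript.

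**Figure D1:**
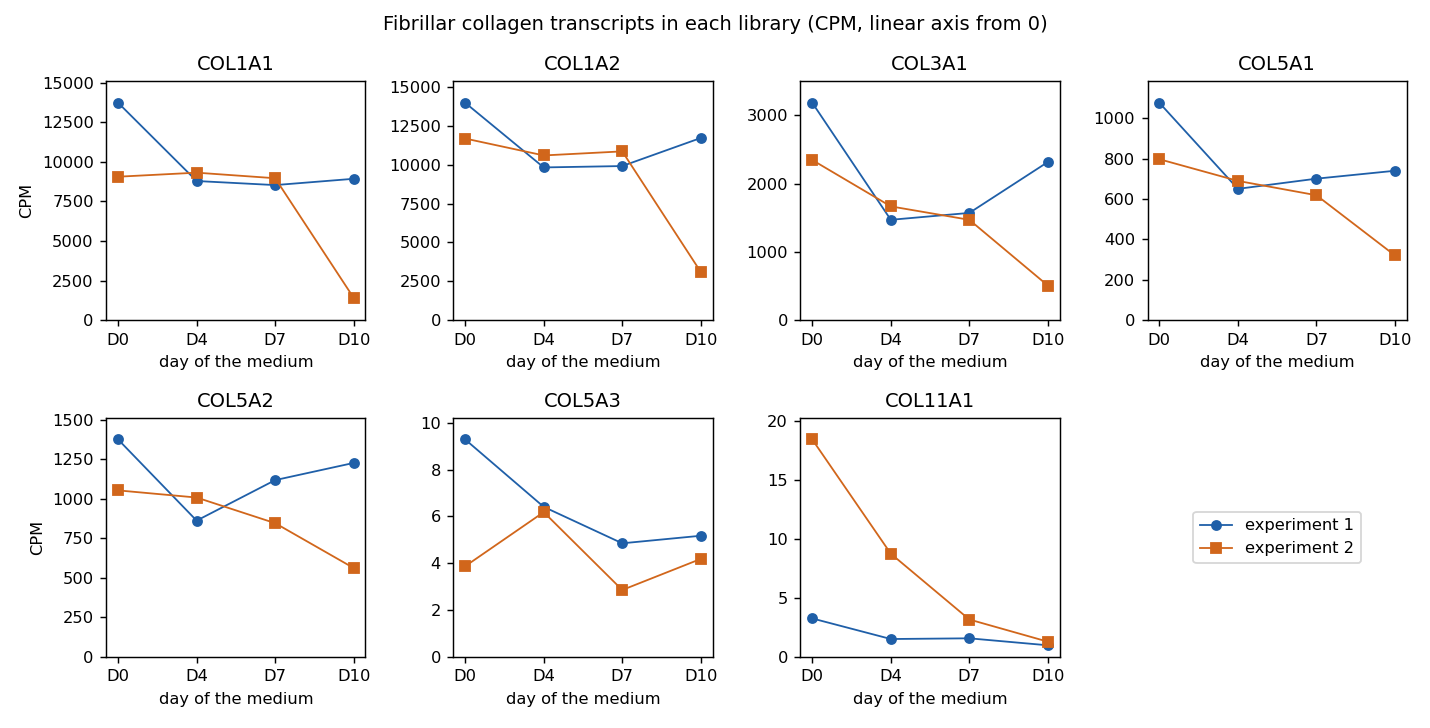
CPM of each fibrillar collagen (vertical axes, linear from 0 and scaled per gene) against the day of the conditioned medium, with 1 point per library and lines joining the libraries of an experiment (circles, experiment 1, squares, experiment 2). COL1A1, COL1A2, COL3A1, COL5A1 and COL5A2 share a low point at D10 of experiment 2, whereas COL11A1 starts high in experiment 2 and ends at 1.28 CPM.

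COL1A1 encodes the α1 chain of type I collagen, 2 copies of which pair with 1 α2 chain, and lies at chr17:50183289-50201632 on the minus strand (GRCh38). In experiment 1 it measured 13742 CPM with D0 medium and 8794, 8537 and 8935 CPM with D4, D7 and D10 medium. In experiment 2 the D0 value was 9066 CPM and the later values were 9322, 8970 and 1402 CPM. The 2 experiments were thus close at D4 and D7, where experiment 2 had 1.06 and 1.05 times the level of experiment 1, and 6.37-fold apart at D10. Both D7 and both D10 libraries lay below both D0 libraries, and the D4 and D0 libraries overlapped. In experiment 1 the whole difference from D0 was present at D4 (64.0% of D0) and the D10 level was 65.0% of D0. In experiment 2 the D7 level was 98.9% of D0 and the D10 level 15.5%.

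COL1A2 encodes the α2 chain of the same helix (chr7:94394561-94431232, plus strand). Experiment 1 had 14002 CPM of it at D0, then 9836, 9925 and 11734 CPM. Experiment 2 had 11698 CPM at D0, then 10609, 10870 and 3099 CPM. All D4 and D7 libraries lay below both D0 libraries, but the D10 library of experiment 1 was above the lower D0 library, so D10 and D0 overlapped. The D10 level was 83.8% of D0 in experiment 1 and 26.5% in experiment 2.

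COL3A1, the single chain of homotrimeric type III collagen (chr2:188974320-189012746, plus strand), was lower than D0 in every other library of its own experiment. Experiment 1 gave 3185 CPM at D0, followed by 1470, 1571 and 2317 CPM. Experiment 2 gave 2346 CPM at D0, followed by 1667, 1469 and 505 CPM. The 4 libraries at D4 and D7 lay in a narrow band well below both D0 libraries. On the log2 scale the difference from D0 was -1.12, -1.02 and -0.46 at the 3 later days of experiment 1 and -0.49, -0.67 and -2.21 at those of experiment 2. In experiment 1 COL3A1 was thus nearer to its D0 level at D10 than at D4.

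Type V collagen is mostly 2 α1(V) chains with 1 α2(V) chain. COL5A1 (chr9:134641774-134844843, plus strand) measured 1076, 650, 700 and 739 CPM at D0, D4, D7 and D10 of experiment 1. In experiment 2 it measured 797, 689, 618 and 320 CPM. All 6 libraries with later medium lay below both D0 libraries. COL5A2 (chr2:189031896-189225312, minus strand) lies beside COL3A1 on the other strand. Its values were 1375, 862, 1118 and 1227 CPM in experiment 1. In experiment 2 they were 1053, 1008, 846 and 562 CPM. Only the D4 libraries of COL5A2 were both below both D0 libraries. At D10 of experiment 2 COL5A2 was at 53.3% and COL5A1 at 40.2% of D0.

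COL5A3 encodes the α3(V) chain of a minor heterotrimer (chr19:9959561-10010471, minus strand). With 37 to 117 counts per library it was measured far less precisely than the chains above. In order of the day, its levels were 9.29, 6.41, 4.85 and 5.18 CPM in experiment 1. They were 3.87, 6.19, 2.86 and 4.19 CPM in experiment 2. The 2 D0 libraries lay above and below all D4 and D10 libraries, and D0 itself differed 2.40-fold between experiments. An antisense gene, AC008742.1, overlaps 4% of its exon bases, and the strand setting of the counting is not given in the sources used here, so a part of these counts may belong to that gene.

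COL11A1 encodes the α1 chain of type XI collagen, which is typical of cartilage and can also join α chains of type V (chr1:102876467-103108872, minus strand). Its counts were low, 41, 20, 21 and 13 at D0, D4, D7 and D10 of experiment 1. In experiment 2 they were 243, 116, 41 and 15. In CPM these are 3.26, 1.51, 1.57 and 0.975 in experiment 1 and 18.4, 8.75, 3.16 and 1.28 in experiment 2. COL11A1 was therefore 5.66-fold higher in experiment 2 with D0 medium, and the experiments were within counting error of each other at D10 (ratio 1.31, 95% counting interval 0.583 to 3.00). Relative to D0 of the same experiment, the log2 difference at D10 was -1.74 in experiment 1 (interval -2.76 to -0.81) and -3.85 in experiment 2 (interval -4.71 to -3.10). These intervals cover counting error only, not the spread between cultures. Of the genes that define cartilage cells, COL2A1 and ACAN were at 0.0794 CPM or less in all 8 libraries. The summed cartilage list, nearly all SOX9, went the other way from COL11A1, from 45.2 and 46.1 CPM at D0 to 99.4 and 109 CPM at D4 and 109 and 123 CPM at D7, and its part in the COL11A1 values was not tested.

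**Figure D2:**
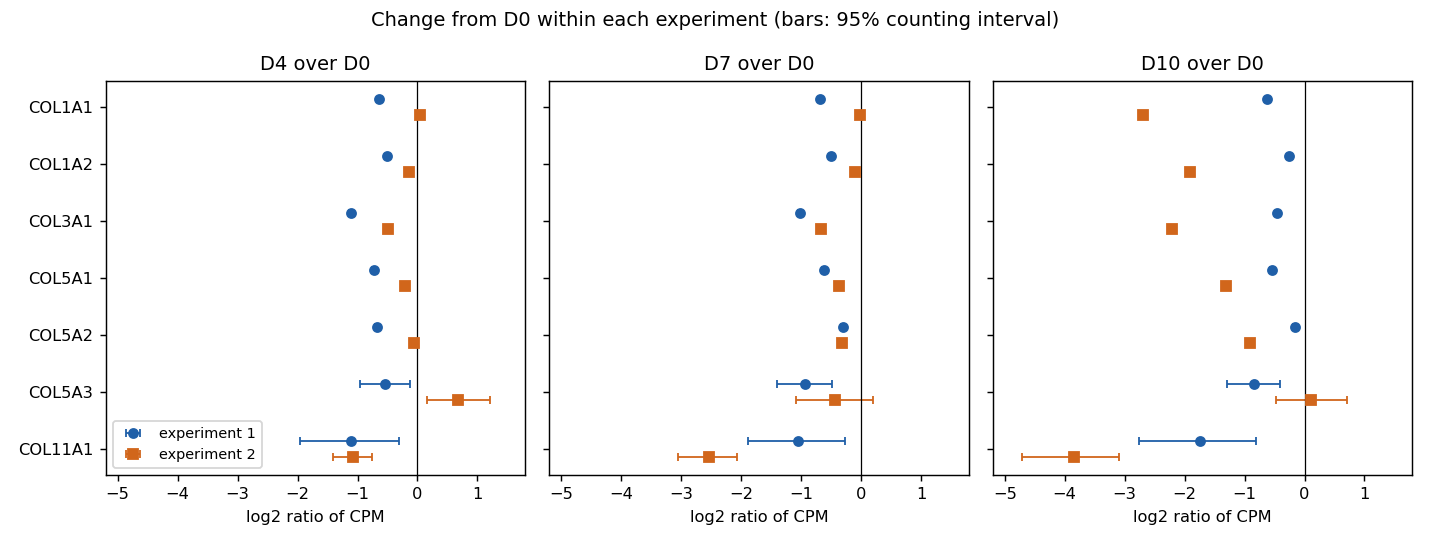
Log2 ratio of CPM at D4, D7 and D10 (panels) to D0 of the same experiment, 1 row per gene, with circles for experiment 1 and squares for experiment 2. Bars are 95% counting intervals and are narrower than the symbols for the 5 abundant genes. At D10 the squares of COL1A1, COL1A2, COL3A1, COL5A1 and COL5A2 lie to the left of the circles. All genes other than COL1A1 and COL5A3 lie below 0 in both experiments on every day.

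No fibrillar collagen passed the threshold at any day against D0 in the fit of all 8 libraries by day (edgeR's quasi-likelihood test, Benjamini-Hochberg adjustment over 13798 genes, adjusted p under 0.05). That fit called 0 of the 7 at D4, D7 and D10, and 0%, 0% and 0.29% of all genes. At an unadjusted p under 0.05 it held 0 members at D4, 1 at D7 and 1 at D10, both times COL11A1, against 2.96%, 4.34% and 7.94% of all genes. DESeq2 called 0, 0 and 1 of the 7, again COL11A1, and 0.348%, 0.823% and 2.59% of the genes it adjusted. The 3 comparisons share the same D0 libraries.

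At D10 the fitted log2 difference from D0 of COL11A1 was -3.25 ± 1.00 (SE), with an adjusted p = 0.309 by edgeR's quasi-likelihood test. With the experiment as a replicate block it was -2.99 ± 0.53, and COL11A1 then fell, with an adjusted p = 0.015 in the edgeR fit, where 4.99% of all genes were called and 2.45% were called lower. This blocked call was lost when the D0 library of experiment 2 was left out, at an adjusted p = 0.214 (edgeR, Benjamini-Hochberg). It held with either D10 library left out, at an adjusted p = 3.32e-05 without experiment 1 and 0.0436 without experiment 2 (edgeR). The blocked fit of all 8 libraries called no other member at any day, and 0.275% and 1.25% of all genes at D4 and D7. With a D10 library left out it also called COL3A1 lower at D4, at an adjusted p = 0.015 without experiment 1 and 0.0233 without experiment 2, and at D7, at 0.00571 and 0.0101 (edgeR). COL11A1 was called lower at D7 in the same fits (adjusted p = 0.00114 and 0.00194, edgeR). Without D10 of experiment 1 these fits called 1.98% of all genes lower at D4 and 2.9% at D7, and without D10 of experiment 2 they called 1.89% and 2.84%. Leaving out a D10 library bears on the D4 and D7 contrasts mainly through the fitted spread, from which it takes the D10 pair. For COL3A1 that pair was 4.58-fold apart. With all 8 libraries its blocked estimate was -0.74 at D4 and -0.83 at D7 (adjusted p = 0.84 and 0.673, edgeR). Without D10 of experiment 1 it was -0.79 and -0.86. DESeq2 with the block also called COL11A1 at D7 (adjusted p = 0.0296) and D10 (adjusted p = 4.81e-05), where it called 2.7% and 6.66% of genes.

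The other 6 chains had smaller fitted differences at D10. For COL1A1 the log2 difference was -1.11 ± 0.77 (SE, adjusted p = 0.967, edgeR) and with the block its adjusted p was 0.307. COL3A1 stood at -0.95 ± 0.65 and COL5A1 at -0.82 ± 0.44. COL1A2 stood at -0.77 ± 0.61, COL5A3 at -0.53 ± 0.50 and COL5A2 at -0.44 ± 0.44. In this fit by day all 6 estimates were negative, and each lay within 2 standard errors of 0. With the block COL1A1 was -1.35 ± 0.63, COL3A1 -1.13 ± 0.52 and COL5A1 -0.89 ± 0.31, each beyond 2 standard errors. COL1A2, COL5A2 and COL5A3 stayed within 2. None of the 6 was called with the block, and the smallest adjusted p was that of COL5A1 (0.164 in edgeR and 0.0512 in DESeq2).

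These estimates join 2 unequal experiments. Without the D10 library of experiment 1, COL1A1 was -3.14, COL3A1 -2.57 and COL1A2 -2.16 on the log2 scale, each called lower (adjusted p = 0.0276, 0.0312 and 0.0415, edgeR), where 0.334% of all genes were called lower. In the blocked fit without that library 6 of the 7 were called lower, and COL5A3 was not, where 7.16% of all genes were called lower. Without the D10 library of experiment 2, COL1A1 was -0.30, COL1A2 -0.07 and COL5A2 0.07 in the fit by day, none of them called. Such fits leave D10 with a single library, which is assumed to vary as the other groups do. The values depart from that assumption. At D10 the experiments were 6.37-fold apart for COL1A1, 3.79-fold for COL1A2 and 4.58-fold for COL3A1. At D0 they were 1.52-, 1.20- and 1.36-fold apart. Calls made without a D10 library therefore leave out the widest spread of these genes.

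**Figure D3:**
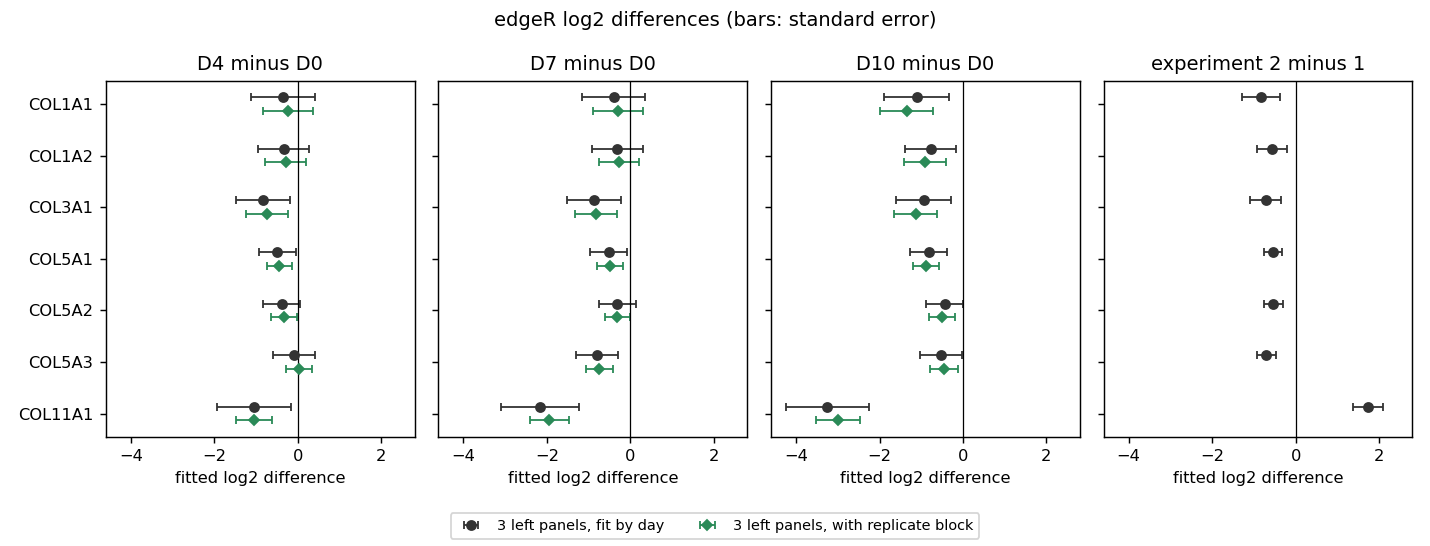
Fitted edgeR log2 differences with bars of 1 standard error, 1 row per gene, for D4, D7 and D10 against D0 and for experiment 2 against experiment 1 (panels). In the first 3 panels circles are the fit by day and diamonds the fit with a replicate block. COL11A1 has the lowest estimate at D10 (-3.25) and is the single gene to the right of 0 in the last panel (1.73).

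At D4 and D7 the median of the estimates was nearer to 0, although COL5A3 stood at -0.79 at D7 against -0.53 at D10. The median log2 difference of the 7 was -0.39 at D4, -0.52 at D7 and -0.82 at D10, where the median of all genes tested was 0.01, 0.00 and 0.00. Within experiment 1 the median of the 7 was -0.67, -0.69 and -0.54. Within experiment 2 it was -0.14, -0.37 and -1.92. The median was thus already low at D4 in experiment 1 and was lowest at D10 in experiment 2. Single members differed from it. In experiment 2 COL11A1 was at 47.4% and 17.2% of D0 at D4 and D7, and COL3A1 at 71.0% and 62.6%. In experiment 1 COL11A1 was at 46.3% and 48.1% of D0 at D4 and D7 and lowest at D10, at 29.9%.

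Counted without a model, both libraries lay below both D0 libraries for 4 of 7 members at D4, 5 at D7 and 4 at D10, where the same held for 12.4%, 15.1% and 16.2% of all genes. CPM was below D0 in both experiments for 5 of 7 at D4, 7 of 7 at D7 and 6 of 7 at D10, against 29.4%, 29.7% and 29.7% of all genes. No member had both libraries of a day above both D0 libraries. COL3A1 and COL5A1 were the 2 members without overlap on all 3 days, which share the same D0 libraries. The shares of all genes above both D0 libraries, or without overlap on all 3 days, are not given here. No step between later days (D7 against D4, D10 against D4 and D10 against D7) was called for a member either, where 0%, 0.00725% and 0% of all genes were, and the smallest adjusted p was 0.888, for COL11A1 at D10 against D4 (edgeR).

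The balance between chains of the same helix is a ratio within a library and does not depend on scaling between libraries. Per kb of exon, COL1A1 stood to COL1A2 as 1.12, 1.02, 0.977 and 0.865 over the 4 media of experiment 1 and as 0.881, 0.998, 0.938 and 0.514 over those of experiment 2. By this length the 2 chains were near parity in 7 libraries. Per kb of the longest transcript COL1A1 was instead 0.678 to 0.874 times COL1A2 in those 7. By either length the ratio was far lower in the D10 library of experiment 2 (0.514 and 0.403) than elsewhere. From D0 to D10 the ratio differed by -0.37 on the log2 scale in experiment 1 and -0.78 in experiment 2 (exact permutation p = 0.333, two-sided, the smallest possible). COL5A1 stood to COL5A2 as 0.521 and 0.504 at D0 and 0.401 and 0.380 at D10. This difference was nearly equal in the 2 experiments, -0.38 and -0.41 on the log2 scale (exact permutation p = 0.333, two-sided).

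Ratios between collagen types also shifted. COL3A1 stood to COL1A2 as 0.373 and 0.328 at D0, and as 0.221 to 0.259 in the 4 libraries at D4 and D7. At D10 the ratio was 0.323 and 0.267. Against COL1A2, type III was therefore lower with all 3 later media than with D0 medium, without overlap between the groups. Against COL1A1 it was lower at D4 and D7 but not at D10, since COL1A1 stood to COL3A1 as 2.99 and 2.68 at D0, 3.77 to 4.23 at D4 and D7, and 2.68 and 1.92 at D10. COL5A1 stood to COL1A1 as 0.0605 to 0.0771 in 7 libraries and as 0.200 in the D10 library of experiment 2. There COL5A2 stood to COL1A2 as 0.271, against 0.116 to 0.169 elsewhere, so the type V chains were less low than the type I chains in that library. Whether the low mitochondrial share of that library has a part in these values was not tested.

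**Figure D4:**
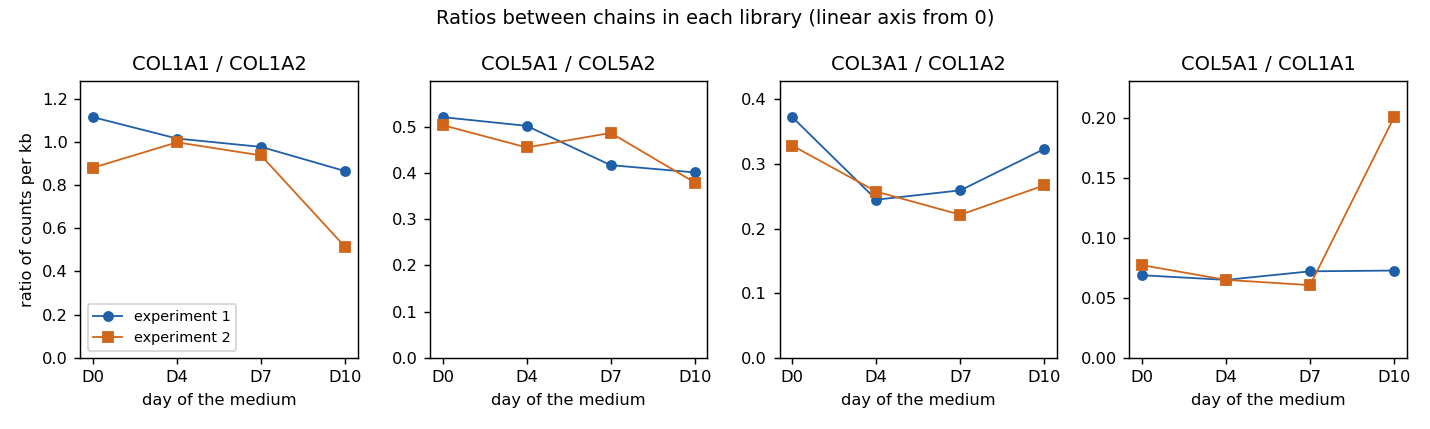
Ratio of counts per kb of exon between pairs of chains (panels, linear axes from 0) against the day of the medium, with circles for experiment 1 and squares for experiment 2, 1 point per library. The ratio of COL1A1 to COL1A2 is lowest (0.514) and that of COL5A1 to COL1A1 highest (0.200) at D10 of experiment 2, and both experiments have a lower ratio of COL3A1 to COL1A2 at D4 and D7 than at D0.

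The 2 experiments were also compared over all days, with the day of the medium in the fit. COL11A1 was higher in experiment 2 by 1.73 ± 0.36 (SE) on the log2 scale (adjusted p = 0.00843, edgeR). COL5A3 was lower by a difference of -0.70 ± 0.23 (adjusted p = 0.046, edgeR). The other 5 had differences of -0.53 to -0.83 and were not called, which makes 2 of 7 where 34.8% of all genes were called, 18.6% higher and 16.2% lower. Without both D10 libraries the difference of COL1A1 was -0.23 in place of -0.83 and that of COL1A2 -0.09 in place of -0.57, whereas COL11A1 stood at 2.05 and COL5A3 at -0.76 and both were called. The call for COL11A1 was lost without the D0 or the D4 library of experiment 2 (adjusted p = 0.0645 and 0.0508, edgeR). The call for COL5A3 was lost without either D0 or either D7 library, and COL5A2 was called without either D4 library (adjusted p = 0.0437 and 0.044, edgeR).

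Over the 8 libraries, the root mean square difference between centred log2 CPM profiles was smallest for COL5A1 and COL5A2 (0.161), and was 1.23 to 1.44 between COL11A1 and any other member. These distances hold the difference between experiments as well as that between days, and for COL11A1 its low counts, and no test compared the time courses of genes. Outside the family, by the same measure, the nearest profiles to COL1A1 were those of MDGA1 (0.167), SLC38A4 (0.202) and C14orf37 (0.237). Those nearest to COL1A2 were GALNT16 (0.083), ST6GAL1 (0.137) and NTN3 (0.181). GALNT16 was closer to COL1A2 than any other collagen chain of the 7 was, the nearest of which was COL3A1 at 0.237.

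The nearest profiles to COL3A1 were SCUBE3 (0.180), GHR (0.185) and SLC9A9 (0.213), and those nearest to COL5A1 were CTSC (0.138), PCYOX1 (0.148) and HHEX (0.154). GRIK2 (0.134), CCDC149 (0.150) and NDST1 (0.156) were nearest to COL5A2, and C1orf53 (0.183), AP002387.1 (0.213) and NOCT (0.251) to COL5A3. COL11A1 had no close match, with KIF26B (0.469), SCN7A (0.503) and PCDH7 (0.537) as the nearest. All profiles come from the same 8 libraries, and in the D10 library of experiment 2 MDGA1, for example, was -2.51 from its own mean.

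Promoter sequence is shown for COL11A1, which was called in the blocked fit, and for COL5A1 and COL5A3, whose chains sit in the same fibril core and which were not called in that fit. These are the 3 members found in the RefSeq promoter table (GRCh38.p14). Each run covers up to 250 bases before the RefSeq start, read 5′ to 3′ on the gene's strand, at chr1:103108523-103108772 (minus) for COL11A1, chr9:134641553-134641773 (plus) for COL5A1 and chr19:10010505-10010754 (minus) for COL5A3. Bases that GENCODE 29 places in an exon were left out, which leaves 221 for COL5A1. The COL11A1 run lies in the first intron of 1 annotated transcript and upstream of the others. Capitals mark matches to the motifs searched.
COL11A1: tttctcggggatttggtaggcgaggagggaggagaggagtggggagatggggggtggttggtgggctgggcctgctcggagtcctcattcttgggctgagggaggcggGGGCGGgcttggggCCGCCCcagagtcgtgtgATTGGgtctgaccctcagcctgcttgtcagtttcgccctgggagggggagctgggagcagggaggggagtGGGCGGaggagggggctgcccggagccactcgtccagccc
COL5A1: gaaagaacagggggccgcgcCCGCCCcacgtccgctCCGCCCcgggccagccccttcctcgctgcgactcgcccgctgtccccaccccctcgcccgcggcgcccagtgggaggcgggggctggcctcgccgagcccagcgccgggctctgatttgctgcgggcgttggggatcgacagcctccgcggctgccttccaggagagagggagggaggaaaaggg
COL5A3: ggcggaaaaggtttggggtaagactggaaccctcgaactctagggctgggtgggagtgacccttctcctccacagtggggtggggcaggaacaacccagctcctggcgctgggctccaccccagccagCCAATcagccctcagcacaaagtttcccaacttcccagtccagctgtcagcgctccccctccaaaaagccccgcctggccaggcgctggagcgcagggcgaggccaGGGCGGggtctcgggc
The motifs searched, on both strands, were TATAAA (the TATA box), CCAAT (bound by NF-Y), GGGCGG (the GC box bound by SP1) and CAGACA (a SMAD element). No matches overlap. COL11A1 held 3 GC boxes and 1 CCAAT box in reverse at position -110 to -106. COL5A1 held 2 GC boxes in reverse, and COL5A3 held 1 CCAAT box and 1 GC box. Among the 35116 promoters of the table, 42.6% held a GC box and 32% a CCAAT box in 250 bases. The TATA box and SMAD letters were not in these 3 windows and occurred in 10.7% and 13.6% of promoters.

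Around the fibrillar chains, 114 genes of collagen synthesis, processing, assembly, sensing, breakdown and control were followed in 9 lists, and 98 were tested. Of these 0 were called at D4, 0 at D7 and 2 at D10, both higher (edgeR, adjusted p under 0.05, 0.196% of all genes called higher at D10). At an unadjusted p under 0.05 the same edgeR fit held 11, 10 and 14 of them, where it held 2.96%, 4.34% and 7.94% of all genes. DESeq2 called 3, 5 and 7, and 0.348%, 0.823% and 2.59% of all genes. The blocked fit called 1 at D4, 4 higher and 3 lower at D7, and 5 higher and 3 lower at D10, where it called 0.275%, 1.25% and 4.99% of all genes. In these lists, then, the 2 genes called without the block rose while the collagen chains were not called.

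MMP1, the interstitial collagenase that cuts intact type I and III fibrils, had 105, 641, 1330 and 3037 CPM over the media of experiment 1 and 65.1, 624, 1445 and 6199 CPM over those of experiment 2. It rose at D10 by 5.68 ± 0.47 (SE) on the log2 scale (adjusted p = 0.0106, edgeR). P4HA3, a catalytic subunit of the prolyl 4-hydroxylases that stabilise the triple helix, was 3.42 and 4.33 CPM at D0 and 18.1 and 23.7 at D10, and rose by 2.40 ± 0.32 (adjusted p = 0.0399, edgeR). Of the 18 chaperones and modifying enzymes it was the single gene called, and the list's median at D10 was 0.16. The more abundant P4HB, the shared β subunit, was 2111 and 1327 CPM at D0 and 2597 and 1329 at D10.

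With the replicate block, SERPINH1, the collagen chaperone HSP47, fell at D10 by 0.77 on the log2 scale (adjusted p = 0.0358, edgeR). It was 981 and 648 CPM at D0 and 584 and 388 at D10. DCN, the small proteoglycan decorin that coats fibrils, also fell, from 4114 and 3747 CPM at D0 to 2026 and 620 at D10 (adjusted p = 0.0362, edgeR). TGFB2, a ligand of the TGF-beta pathway that drives collagen transcription, fell from 75.8 and 81.1 CPM to 20.2 and 31.5 (adjusted p = 0.00333, edgeR). In the same blocked fit ITGA2, the α2 chain of a collagen-binding integrin, CTSK, the collagen-cleaving cathepsin K, and the transcription factor CEBPB rose. ITGA2 was 179 and 207 CPM at D0 and 805 and 732 at D10, CTSK 26.1 and 20.2 against 49.0 and 64.6, and CEBPB 82.8 and 63.2 against 144 and 248.

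The lists of other fibrillar chains, procollagen export and processing, and crosslinking enzymes had no call at D10 in either edgeR fit. Their genes with the largest differences were COL24A1 (0.72) among the other fibrillar chains, PCOLCE (-0.97), the enhancer of C-propeptide removal, in procollagen processing, and TGM2 (-0.87), a transglutaminase, among crosslinking enzymes. Among receptors the largest was ITGA10 at 2.06 and among TGF-beta genes TGFB3 at -1.77, neither called at D10 in either edgeR fit, and DESeq2 called ITGA10. The median of the 13 fibril assembly partners tested was -0.51 at D10, that of the 8 collagenases and other degrading enzymes 0.23, and that of the 22 transcription factors 0.13, on the log2 scale.

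At D7 the blocked fit called ITGA2, ITGA10, MMP1 and SOX9 higher and LUM, TGFB2 and CEBPD lower. SOX9, a cartilage transcription factor that activates type II and XI collagen genes, was 45.0 and 45.8 CPM at D0 and 109 and 123 at D7. LUM, the proteoglycan lumican, was 230 and 463 CPM at D0 and 143 and 169 at D7. SOX9, LUM, DCN and PRRX1 also stand among the marker lists above.

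Between experiments, 31 of the 98 genes were called, 16 higher and 15 lower in experiment 2, against 34.8% of all genes called, 18.6% higher and 16.2% lower, so the lists as a whole were near the share over all genes. The lower calls included 11 of the 18 chaperones and modifying enzymes, SERPINH1, PPIB, P4HB, P4HA2, PLOD1, PLOD3, P3H1, P3H2, P3H3, P3H4 and COLGALT1, and no gene of that list was called higher. The other lower calls included FURIN, SPARC and CREB3L1. The median of the chaperones and modifying enzymes was -0.46. COL11A2, COL24A1 and COL27A1, the 3 other fibrillar chains tested, were all called higher in experiment 2, with differences of 1.49, 0.96 and 0.79, in the same direction as COL11A1. The remaining higher calls were TGM2, LUM, FMOD, THBS1, THBS2, ITGA1, SKIL, SP3, NFYB, SMAD4, ETS1, EGR1 and PRRX1, of which EGR1, an immediate-early transcription factor, differed most at 3.79.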

How the data were processed

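RNA was sequenced as stranded poly(A) libraries. The authors deposited raw counts per gene and RPM derived from them, and RPM matched CPM recomputed from the counts within 0.005. The submitters' processing notes name STAR 2.5, DESeq2 and GRCh38, and the counting tool and strand setting are not given in the sources used here. The header of 1 column reads DO and was taken as D0. Groups follow the sample titles, and the replicate number is the experiment. CPM is a count over the library total. Counts were tested with edgeR 4.0.16 in R 4.3.3 (filterByExpr, TMM, glmQLFit and glmQLFTest, 13798 genes, all 8 libraries by day), with Benjamini-Hochberg adjustment, called at 0.05. The replicate numbers pair the libraries, since they are 2 independent experiments, and same-numbered libraries deviated together (r 0.418 to 0.722 across genes in all 6 pairs of groups), so the blocked fit is given where it changes a call. Alternatives were DESeq2 1.42.0, other scalings and filters, fewer groups and leaving out each library. The fits were also run on simulated data, with outcomes not given here. Both simulated D10 libraries had the same changes, so that run does not cover the disagreement between the D10 libraries seen here. Counting intervals are exact binomial (Clopper-Pearson) at 95%. Positions and lengths are from GENCODE 29, which holds 99.6% of identifiers. Members and lists were chosen with earlier results of these data known. Named are all members, the called and most changed gene of each list, and the 3 nearest profiles of each member, apart from an item not reported here. P-values rest on 2 libraries per group.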

Additional observations from a re-analysis of the deposited data

Results flagged for a closer look

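The log2 ratios of COL1A1 and COL5A3 had opposite signs in the 2 experiments under the same contrast, and the difference between experiments was not tested. For COL1A1 the log2 ratio of D4 to D0 was -0.64 in experiment 1 and 0.040 in experiment 2. In experiment 2 the D4 level was thus nearly that of D0 (102.8%), with 1 library at each day. For COL5A3 the log2 ratio was -0.54 and 0.68 at D4, and -0.84 and 0.11 at D10. COL5A3 had at most 117 counts in a library, and its D10 ratio in experiment 2 had a counting interval of -0.48 to 0.71.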

How the results depend on the processing

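Each result was recomputed under the alternatives, and for the main comparisons 166 values stayed within the spread or 1.5 times the count and 48 moved. Without a block, leaving out 1 library gave 0 to 3 members called at D10 and a median log2 difference there of -2.16 to -0.28. The count of 3 and the median of -2.16 came without the D10 library of experiment 1. The median was -0.63 to -0.12 at D4 and -0.72 to -0.11 at D7, with the lower ends without the D0 library of experiment 2 and the upper ends without that of experiment 1. The blocked fit, DESeq2, DESeq2 with the block and no filter each called 1 member at D10, COL11A1, and the blocked fit with 1 library left out called 0 to 6, with a median of -2.11 and 6 calls without the D10 library of experiment 1. At D4 and D7 the blocked fit with 1 library left out called 0 to 1 and 0 to 2 members, the upper counts without either D10 library (COL3A1 at both days and COL11A1 at D7), with medians of -0.85 to 0.078 at D4 and -0.76 to -0.29 at D7, the lower ends without that day's library of experiment 2 and the upper ends without that of experiment 1. These blocked leave-one-out fits, and the fits of the experiments without D10, were chosen after seeing the data. DESeq2 with the block called 1 at D7, COL11A1 (adjusted p = 0.0296). With all 8 libraries the block changed no call among the members in edgeR other than that of COL11A1 at D10. In DESeq2 it changed none other than that of COL11A1 at D7. Between experiments the members called were 1 with library totals (33.6% of all genes called, and 33.8% without the 7 members), 7 without a filter (19.5%), 0 without the day in the fit (27.7%), 4 by DESeq2 with the block (31.4%), and 0 to 3 with 1 library left out, from 0 without the D0 library of experiment 2 (14.8%) to 3 without the D4 library of experiment 1 (20.9%). Pathway genes called at D4, D7 and D10 were 0, 0 and 2, and 1, 7 and 8 with the block, 3, 5 and 7 by DESeq2, and 9, 10 and 14 by DESeq2 with the block. With 1 library left out, the D10 difference of the COL1A1 to COL1A2 ratio was -0.95 to -0.20 and that of COL5A1 to COL5A2 -0.43 to -0.35. Single members reversed as follows. With 1 library left out, COL1A1 ranged from -0.67 to 0.074 at D4 and from -0.72 to 0.012 at D7, COL11A1 from -2.76 to 0.57 at D4, and COL5A2 from -1.23 to 0.074 at D10. The upper ends came without the D0 library of experiment 1 for COL1A1, without the D0 library of experiment 2 for COL11A1, and without the D10 library of experiment 2 for COL5A2. COL5A3 ranged from -0.63 to 0.78 at D4, from -1.33 to 0.064 at D7 and from -1.07 to 0.33 at D10, with the upper ends without the D0 library of experiment 1. With the block, COL5A3 at D4 was 0.030, and 0.55 without D0 and 0.43 without D4 of experiment 1, 0.037 and 0.028 without either D7 library, 0.033 and 0.021 without either D10 library, and 0.059 by DESeq2, and at D10 it was 0.076 without D0 of experiment 1. With the block and without D4 of experiment 1, COL1A1, COL1A2 and COL5A2 at D4 were 0.27, 0.078 and 0.088, and without D7 of experiment 1 COL1A1 and COL1A2 at D7 were 0.22 and 0.12. The causes were not tested. Depth limits COL5A3 and COL11A1, with 13 to 243 counts per library.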

Other observations

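The table also holds 33 other collagen chain genes, found by symbol after the values of the fibrillar chains had been seen, and 21 of them were tested. The fit by day called 0 at D10 (edgeR, adjusted p under 0.05) and held 7 at an unadjusted p under 0.05, DESeq2 called 3 higher and 1 lower, and the blocked edgeR fit called 4 higher and 1 lower. Over all genes the shares were 7.94% at an unadjusted p under 0.05, 2.59% called by DESeq2 and 4.99% called in the blocked fit. COL7A1, the chain of anchoring fibrils, was 59.8 and 141 CPM at D0 and 152 and 702 at D10, and rose in the blocked fit (adjusted p = 0.00442, edgeR). COL4A5 and COL4A6, chains of basement membranes, were 263 and 303 and 56.0 and 62.0 CPM at D0, against 468 and 628 and 128 and 164 at D10. COL13A1, a transmembrane collagen, was 30.2 and 29.8 CPM at D0 and 64.8 and 56.0 at D10. COL8A2, a short-chain network collagen, fell in the same fit, from 4.21 and 6.30 CPM to 1.35 and 1.88 (adjusted p = 0.0151, edgeR).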
